A study of Mus musculus with 16 samples.

Results

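Tumors from mice given α-KG alone were compared directly with tumors from mice given anti-PD1 alone, gene by gene. The comparison took in every gene with at least 0.5 FPKM in at least 4 of the 16 tumors of the series, which left 12850 of the 18929 genes listed, and it used 8 of the 16 tumors, 4 from each treatment. FPKM is the number of sequenced fragments of a gene scaled to its transcript length and to the size of the library. All tumors were grown from B16F10, a mouse melanoma cell line, injected on the right side of the abdomen, and the hosts were female C57BL/6 mice aged 7 to 8 weeks. Treatment was given into the peritoneum from a tumor volume of about 50 cubic millimeters and lasted 9 to 11 days. The α-KG mice received α-ketoglutarate at 100 mg/kg and the anti-PD1 mice received a PD1 monoclonal antibody. The vehicle mice, whose values stand beside some results, received corn oil with an IgG isotype control, and the remaining mice received α-KG + anti-PD1. It is not given in the sources used here whether the mice on a single treatment also received the carrier or isotype control of the other. The study used 6 mice in a group and sequenced 4 tumors from each. Both treated groups carried a single transplanted tumor line in an immune-competent host, and whole tumor tissue was sequenced without sorting.

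Anti-PD1 blocks PD1, an inhibitory receptor of activated T cells, so that its ligand PD-L1 (the product of Cd274) on tumor and myeloid cells can no longer restrain them. Interferon-γ released by T cells acts through JAK kinases and STAT factors, and it turns on guanylate-binding proteins, the immunoproteasome, MHC class I and Cd274 itself. α-KG is a metabolite of the TCA cycle and a cofactor of the TET enzymes, histone demethylases and prolyl hydroxylases. Neutrophils, the myeloid cells whose marker genes are described below, carry calprotectin and lipocalin and are called into tissue by CXCR2 chemokines and G-CSF.

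The libraries of both groups resembled each other in their totals. The FPKM values summed to 611228 ± 33313 (SD, n = 4) in α-KG tumors and 597328 ± 49941 in anti-PD1 tumors (exact two-sided permutation test, p = 0.657, where the smallest p that 4 against 4 tumors allow is 0.029). The 10 hemoglobin genes took 11.1% ± 4.4 of the sum in α-KG tumors and 14.2% ± 7.6 in anti-PD1 tumors (exact permutation test, p = 0.457). The table holds no read counts, so sequencing depth is unknown and no counting interval can be set. Melanocyte genes, the defining markers of B16F10, stood at a mean of 7.27 to 7.43 on the log2(FPKM + 1) scale in α-KG tumors and at 7.38 to 7.48 in anti-PD1 tumors. Skeletal muscle genes summed to 4.51 to 5.35 FPKM in α-KG tumors and 3.31 to 5.16 in anti-PD1 tumors, against 112 to 1496 in the vehicle tumors, which contribute to the shared estimate of spread.

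Expression differed in 406 of the 12850 genes tested (3.16%; limma, Benjamini-Hochberg adjusted p under 0.05, written below as called). Of these, 360 (2.8%) were higher in α-KG tumors and 46 (0.358%) were lower. When the sums without hemoglobin genes were set equal, the split was 294 higher and 155 lower, which takes the share of higher calls from 88.7% to 65.5%. The called genes that were higher differed by a median of 1.37 on the log2(FPKM + 1) scale, 93 of them by at least 2 and 19 by at least 4. Differences below anti-PD1 were smaller, with a median of -0.42 and a single gene, Cd36, beyond -1. The median over all genes tested was -0.07. All 4 α-KG tumors lay above or all 4 lay below all 4 anti-PD1 tumors in 397 of the 406 called genes and in 1248 of all genes tested (9.71%), with the α-KG tumors above in 5.41% and below in 4.3%. In whole tumors, fewer cells of a type and less RNA per cell cannot be told apart, and this holds for every result that follows.

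**Figure D1:**
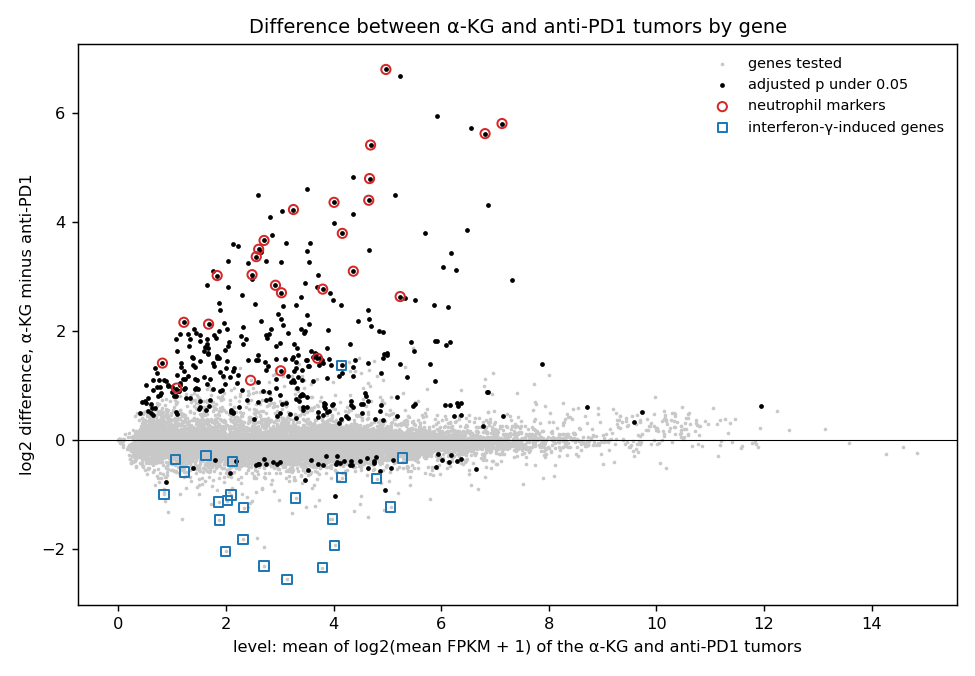
Each point is 1 of the 12850 genes tested, with its level on the x axis (log2 of the mean FPKM + 1 of each group, averaged over both groups) and the log2 difference of α-KG minus anti-PD1 tumors on the y axis. Black points are the 406 called genes, red circles are 26 neutrophil markers, all above 0, and blue squares are 23 interferon-γ-induced genes, of which 22 lie below 0 without being called.

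The 12 largest differences were taken from called genes without overlap between the groups, so both traits were set by the choice. They included 5 genes of the neutrophil marker list, Lcn2, S100a9, S100a8, Retnlg and G0s2, and were led by Lcn2 and Saa3. Lcn2, the iron-chelating lipocalin of neutrophil granules, measured 390, 136, 406 and 438 FPKM in the 4 α-KG tumors and 1.78, 2.69, 0.94 and 2.07 in the 4 anti-PD1 tumors. Its difference was 6.81 ± 0.41 (SE) on the log2(FPKM + 1) scale (limma, adjusted p = 2.19e-07), and the lowest α-KG tumor, number 2, was still far above every anti-PD1 tumor. Saa3, an acute-phase apolipoprotein, measured 861, 106, 301 and 436 FPKM under α-KG and 1.25, 2.04, 2.98 and 3.02 under anti-PD1. α-KG tumor 1 was the highest and tumor 2 the lowest, and the difference was 6.68 ± 0.54 (limma, adjusted p = 1.41e-06). S100a9 and S100a8 encode both chains of calprotectin, the most abundant cytosolic protein of neutrophils. S100a9 measured 751, 529, 1021 and 1473 FPKM against 13.2, 43.9, 3.90 and 18.3 (difference 5.81 ± 0.64, limma adjusted p = 2.43e-05). S100a8 measured 607, 416, 785 and 1044 FPKM against 9.65, 36.4, 3.79 and 17.2 (difference 5.63 ± 0.61, limma adjusted p = 1.85e-05). For both chains α-KG tumor 4 was highest, and anti-PD1 tumor 2 stood above the other anti-PD1 tumors without reaching an α-KG tumor.

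Inflammatory mediators made up much of the remainder. Il1b, which encodes the fever cytokine interleukin-1β, measured 384, 276, 481 and 722 FPKM in α-KG tumors and 4.29, 13.5, 3.75 and 6.04 in anti-PD1 tumors (difference 5.95 ± 0.50, limma adjusted p = 1.89e-06). Cxcl2, a ligand of the neutrophil receptor CXCR2, measured 566, 414, 607 and 1232 FPKM against 11.9, 12.8, 7.25 and 14.3 (difference 5.73 ± 0.64, limma adjusted p = 2.66e-05). Ptgs2, the inducible cyclooxygenase that starts prostaglandin synthesis, measured 45.0, 33.5, 58.5 and 88.0 FPKM against 0.78, 1.54, 1.43 and 1.16 (difference 4.61 ± 0.39, limma adjusted p = 1.89e-06). In all 3 genes α-KG tumor 4 was highest and tumor 2 lowest. The vehicle tumors averaged 2.94 ± 2.20 (SD, n = 4) FPKM for Il1b, 4.71 ± 2.56 for Cxcl2 and 0.445 ± 0.281 for Ptgs2 FPKM. None of these 3 genes was called between anti-PD1 and vehicle tumors (log2 differences of 0.99, 1.24 and 0.63, limma adjusted p = 0.337, 0.346 and 0.429).

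The other members of the 12 were Retnlg, a resistin-like protein of granulocytes (difference 5.42), Slpi, an inhibitor of neutrophil elastase (4.83), G0s2, an inhibitor of adipose triglyceride lipase (4.80), Ifitm1, an interferon-induced transmembrane protein (4.5), and Mrgpra2b, a neutrophil receptor of the Mas-related family (4.5). Ifitm1 measured 144, 96.5, 213 and 227 FPKM in α-KG tumors and 4.28, 7.73, 4.92 and 8.5 in anti-PD1 tumors. Mrgpra2b measured 22.8, 10.6, 43.5 and 40.6 FPKM under α-KG and was listed at 0.37, 0.43, 0 and 0 under anti-PD1. It passed the filter only through the α-KG tumors, and its sequence is close to that of Mrgpra2a, so fragments may be divided between them. The adjusted p of Retnlg, Slpi, G0s2, Ifitm1 and Mrgpra2b ran from 2.19e-07 to 2.86e-06 (limma).

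**Figure D2:**
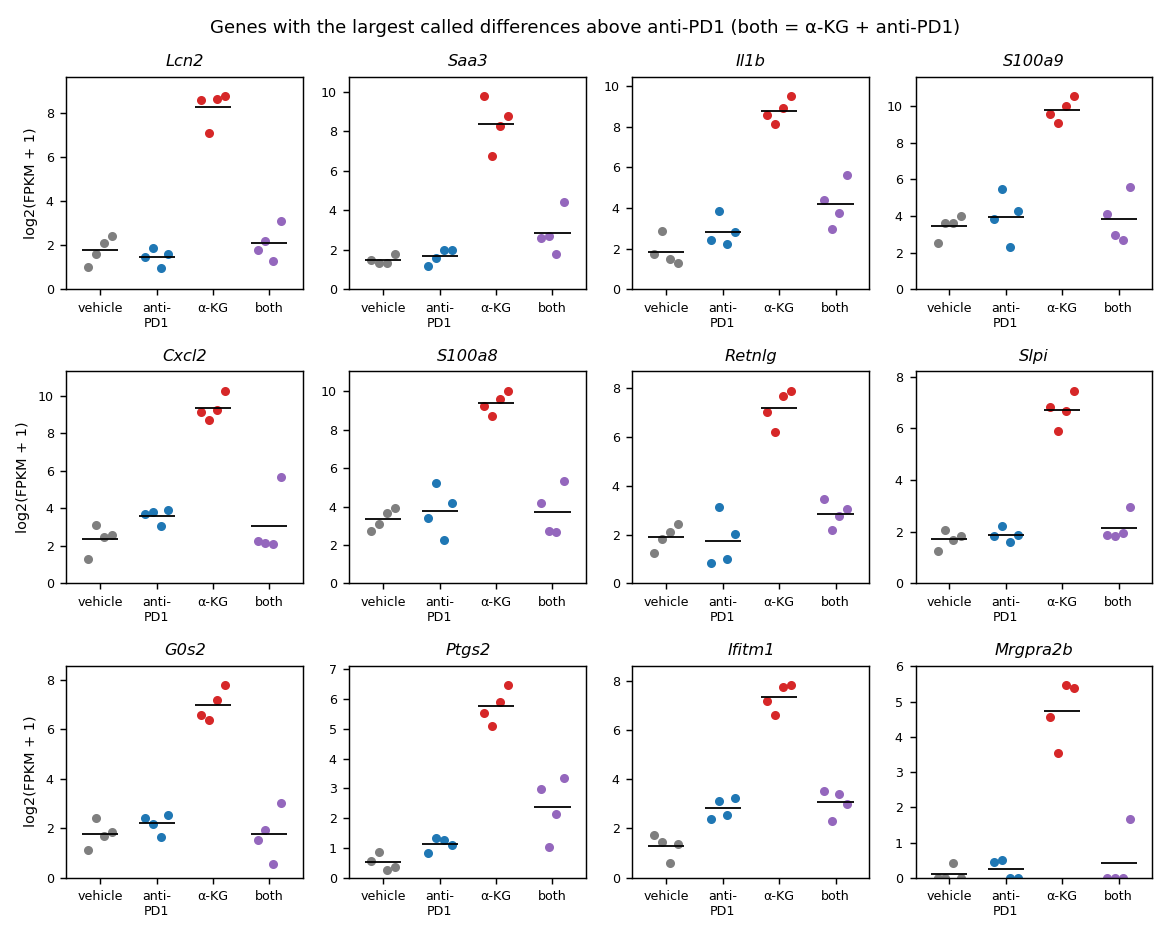
Each panel shows 1 of the 12 genes with the largest called differences, with log2(FPKM + 1) on the y axis, a point for each tumor, a bar for the group mean of 4 tumors, and the 4 treatment groups, including vehicle and the combined treatment, on the x axis. The genes were picked for lack of overlap, so the 4 α-KG tumors lie above the 4 anti-PD1 tumors in every panel. Differences run from 6.81 log2 units for Lcn2 to 4.5 for Mrgpra2b.

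The bases in front of these 12 genes are shown next. Their common direction was set by the choice, so the motif counts are a description and not a test. On both strands, 3 short motifs known for inflammatory genes were searched in the 250 bases before the start of each gene (RefSeq, GRCm38.p6). The motifs were the NF-κB consensus, the interferon-γ-activated GAS motif (TTCNNNGAA) and a C/EBP core motif (TTGCNNAA). The C/EBP core motif occurred in 9.56% of 32851 such windows and in 6 of the 12 genes (Lcn2, Saa3, S100a9, Retnlg, Slpi and Ptgs2). The NF-κB consensus occurred in 3.9% of all windows and in 1 of the 12, Cxcl2, where 2 overlapping matches begin 97 and 96 bases before the start. The GAS motif occurred in 7.02% of all windows and in none of the 12. Of the 12 genes with the largest differences below anti-PD1, 6 had a window, and none held any of the 3 motifs. Cd274, whose values follow further on, had no match either. Matches are a description of these letters and not of binding. Of the windows with a match, 4 are printed 5′ to 3′ with the matched bases in capitals. Saa3 (chr7:46715677-46715926, minus strand), S100a9 (chr3:90695722-90695971, minus strand) and Ptgs2 (chr1:150099781-150100030, plus strand) show a C/EBP core motif, and Cxcl2 (chr5:90903649-90903898, plus strand) shows the overlapping NF-κB matches.
Saa3: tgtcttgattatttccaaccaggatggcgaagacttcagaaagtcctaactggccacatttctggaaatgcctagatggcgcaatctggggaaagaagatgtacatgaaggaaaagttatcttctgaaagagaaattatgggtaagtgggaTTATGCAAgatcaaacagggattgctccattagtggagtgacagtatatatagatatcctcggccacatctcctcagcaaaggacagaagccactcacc
S100a9: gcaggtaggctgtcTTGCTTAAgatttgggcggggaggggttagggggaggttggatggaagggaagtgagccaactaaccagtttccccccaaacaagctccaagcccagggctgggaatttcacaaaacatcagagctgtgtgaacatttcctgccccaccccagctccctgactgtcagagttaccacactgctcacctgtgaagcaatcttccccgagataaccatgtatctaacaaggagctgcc
Ptgs2: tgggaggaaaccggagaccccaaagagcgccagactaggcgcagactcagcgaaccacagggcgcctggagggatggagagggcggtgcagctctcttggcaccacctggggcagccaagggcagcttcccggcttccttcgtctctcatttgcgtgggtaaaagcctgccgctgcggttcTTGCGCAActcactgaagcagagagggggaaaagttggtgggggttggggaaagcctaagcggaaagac
Cxcl2: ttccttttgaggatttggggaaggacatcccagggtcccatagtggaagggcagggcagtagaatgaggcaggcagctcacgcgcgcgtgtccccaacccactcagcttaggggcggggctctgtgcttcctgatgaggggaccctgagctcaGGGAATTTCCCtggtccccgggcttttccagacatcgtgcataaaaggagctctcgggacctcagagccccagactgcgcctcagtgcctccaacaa

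Neutrophil markers were higher in α-KG tumors in nearly every member tested. Of 28 listed genes, 26 passed the filter on low values, and Ltf and Camp, which mark the granules of immature neutrophils, did not. Of the 26, 24 were higher in α-KG tumors and 0 lower (background 2.8% higher), Cd177 and Slc7a11 were not called, and the median difference was 3.07 on the log2 scale against -0.07 over all genes. This list, like the lists that follow, was chosen with earlier results of these data known. Setting its counts beside the background is therefore a description and not a test. Of the 26, 4 passed the filter only through the α-KG tumors, where they are high (Ly6g, Mrgpra2a, Ngp and Trem3), so their difference is partly set by the filter. With a filter of 1 FPKM in at least 8 tumors, 17 markers were left and 16 of them were called. Their summed level was 1595 to 4392 FPKM in α-KG tumors and 64.2 to 177 in anti-PD1 tumors, with 43.4 to 58.9 in vehicle tumors. As means of log2(FPKM + 1), the 4 α-KG tumors stood at 4.97, 4.26, 5.29 and 5.58 and the 4 anti-PD1 tumors at 1.47, 2.21, 1.40 and 1.71. Besides Lcn2 and Retnlg, the members with the smallest p were Il1f9, an interleukin-36 cytokine (33.0, 21.6, 37.5 and 50.9 FPKM against 2.85, 5.52, 5.12 and 3.57), and Asprv1, a protease (21.3, 8.16, 23.8 and 27.4 against 0.46, 1.32, 0.32 and 0.93). A pair of defining surface markers was added after their values were seen. Ly6g, the neutrophil antigen recognized in mouse tissue, measured 1.57, 2.11, 9.16 and 4.38 FPKM in α-KG tumors and 0, 0, 0 and 0.08 in anti-PD1 tumors (difference 2.17 ± 0.29, limma adjusted p = 2.02e-04). Csf3r, the G-CSF receptor, measured 53.8, 35.0, 69.1 and 82.8 FPKM against 5.90, 8.25, 3.88 and 5.82 (difference 3.10 ± 0.27, limma adjusted p = 2.6e-06). The groups did not overlap for either gene.

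Neutrophil attractants and growth factors followed the same direction, with 7 of 9 tested members higher (background 2.8%) and 0 lower. Their median difference was 3.11. Ccl3, a chemokine of myeloid cells, measured 501, 330, 522 and 759 FPKM in α-KG tumors and 21.8, 20.9, 27.8 and 27.7 in anti-PD1 tumors (difference 4.32 ± 0.31, limma adjusted p = 4.99e-07). Ccl4, its close relative, measured 309, 184, 396 and 505 FPKM against 15.3, 24.5, 24.4 and 23.1 (difference 3.87 ± 0.35, limma adjusted p = 2.86e-06). Both chemokines also differed between anti-PD1 and vehicle tumors, by 1.44 (limma, adjusted p = 0.0463) and 1.66 (adjusted p = 0.0441), in a comparison that shares the anti-PD1 tumors with this one. Csf3, which encodes G-CSF, measured 9.90, 3.77, 8.66 and 15.2 FPKM against 0.06, 0.25, 0 and 0.11 (difference 3.11 ± 0.30, limma adjusted p = 5.82e-06), and it passed the filter only through the α-KG tumors. Cxcl3, another CXCR2 ligand, measured 158, 138, 127 and 377 FPKM against 16.7, 11.3, 8.02 and 13.3 (difference 3.80 ± 0.39, limma adjusted p = 1.07e-05). No tumor overlapped in these 4 genes, and the platelet chemokines Ppbp and Pf4 were the members not called.

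In the IL-1 family and inflammasome list, 8 of 16 tested members were higher (background 2.8%) and 0 lower, with a median difference of 0.62. Besides Il1b, they included Il1a, the cell-bound form of interleukin-1 (30.3, 14.6, 38.8 and 60.6 FPKM against 0.51, 0.82, 0.67 and 1.25), Nlrp3, an inflammasome sensor (17.9, 12.2, 18.8 and 32.6 against 0.70, 1.99, 0.85 and 0.93), and Il1r2, a decoy receptor that binds interleukin-1 (31.0, 22.8, 35.3 and 54.4 against 2.33, 7.33, 2.18 and 2.86). The 3 genes differed by 4.20, 3.29 and 3.03 on the log2 scale (limma, adjusted p from 4.97e-06 to 1.73e-05), with every α-KG tumor above every anti-PD1 tumor. Il1rn, which encodes the receptor antagonist, was also called (difference 3.12, limma adjusted p = 2.38e-04), so genes of agonists and of inhibitors of interleukin-1 were both higher.

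Of 30 tested genes of Toll-like receptors and NF-κB, 14 were higher (background 2.8%) and 0 lower, with a median difference of 0.66. Nfkbia, the inhibitor IκBα that NF-κB itself induces, measured 187, 114, 213 and 294 FPKM in α-KG tumors and 16.9, 23.1, 23.1 and 18.5 in anti-PD1 tumors (difference 3.18 ± 0.28, limma adjusted p = 2.6e-06). Tlr6, a co-receptor of TLR2, measured 4.82, 3.51, 3.62 and 6.39 FPKM against 0.41, 0.88, 0.80 and 0.64 (difference 1.71 ± 0.17, limma adjusted p = 6.85e-06). Tnf, which encodes tumor necrosis factor, measured 35.3, 10.9, 44.1 and 33.8 FPKM against 0.89, 1.96, 1.14 and 1.47 (difference 3.62 ± 0.44, limma adjusted p = 5.81e-05). α-KG tumor 2 was the lowest of its group for all 3 genes and lay above every anti-PD1 tumor. Rela and Nfkb1, which encode subunits of NF-κB itself and were picked after their values were seen, were not called (differences of 0.30 and 0.28, limma adjusted p = 0.16 and 0.425).

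Immediate early genes, which respond to stress and growth signals within minutes, had 5 of 19 members higher, against 2.8% of all genes tested, 0 lower and a median of 0.40. Dusp1, a phosphatase of MAP kinases, differed by 2.57, Zfp36, which destabilizes cytokine messenger RNA, by 2.49, and the transcription factors Junb and Egr1 by 1.80 and 1.47 (limma, adjusted p from 4.83e-06 to 5.36e-04). Zfp36 measured 127, 86.5, 151 and 190 FPKM in α-KG tumors and 17.0, 31.2, 22.7 and 23.1 in anti-PD1 tumors. The transcription factors Fos and Jun, picked after their values were seen, were not called (differences of 0.40 and 0.10, limma adjusted p = 0.249 and 0.793).

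Other myeloid lists differed less. Of 17 monocyte genes, 4 were higher (background 2.8%) and 0 lower, with a median of 0.55. Among them, Chil3, a chitinase-like lectin, differed by 2.03, Thbs1, the matrix protein thrombospondin-1, by 1.75, and Vcan, a proteoglycan, by 0.93 (limma, adjusted p = 0.00157, 0.0121 and 0.00283), each with every α-KG tumor above every anti-PD1 tumor. Ccr2 and Ly6c2, which define inflammatory monocytes and are named outside the naming rule, were not called (differences of 0.49 and 0.60, limma adjusted p = 0.54 and 0.586). Of 21 macrophage genes, 0 were higher and 1, Cd36, was lower (background 0.358%), with a median of 0.13. Their summed level was 2990 to 3743 FPKM in α-KG tumors and 2797 to 4156 in anti-PD1 tumors, so the ranges overlapped. Of 9 markers of alternatively activated macrophages, 3 were higher (background 2.8%). They were Chil3, Il10, an anti-inflammatory cytokine (4.51, 1.07, 3.64 and 5.07 FPKM against 0.24, 0.57, 0.54 and 0.55), and Il4ra, the interleukin-4 receptor. Il4ra lost its call when any 1 of the 8 tumors was left out (limma, adjusted p from 0.0514 to 0.121). None of 13 dendritic cell markers was called, the nearest being Fscn1 (difference 0.46, limma adjusted p = 0.219) and Ccr7 (0.60, adjusted p = 0.299). None of 5 Fc gamma receptor genes was called, with differences from 0.16 to 1.03. In 3 of the 5 every α-KG tumor lay above every anti-PD1 tumor, against 5.41% of all genes. With the fit restricted to the 8 tumors compared, Fcer1g and Fcgr3 were called (limma, adjusted p = 0.0183 and 0.0179).

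All 15 markers of leukocytes in general had differences above 0, with a median of 0.93, and 2 of them were called, which compares with 2.8% of all genes. Cd37, a tetraspanin of lymphoid and myeloid cells, measured 18.0, 21.5, 21.4 and 20.2 FPKM in α-KG tumors and 6.00, 7.90, 7.97 and 7.03 in anti-PD1 tumors (difference 1.37 ± 0.30, limma adjusted p = 0.0157). Cd53, also a tetraspanin, measured 47.4, 39.2, 46.7 and 66.3 FPKM against 12.5, 17.5, 19.5 and 17.7 (difference 1.51 ± 0.39, limma adjusted p = 0.0454). The groups did not overlap for either gene. The call for Cd37 was lost without α-KG tumor 3 (adjusted p = 0.0538), and that for Cd53 without any 1 of the 8 tumors (0.0634 to 0.121). With the fit restricted to the 8 tumors compared, 10 of the 15 were called.

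Cd274, which encodes PD-L1, was the study's central gene and was higher in α-KG tumors. It measured 26.8, 22.2, 25.2 and 34.4 FPKM in α-KG tumors, 6.49, 13.9, 12.4 and 7.85 in anti-PD1 tumors and 7.63, 4.19, 3.14 and 2.66 in vehicle tumors. The lowest α-KG tumor was above the highest anti-PD1 tumor, and the difference was 1.37 ± 0.31 on the log2 scale (limma, adjusted p = 0.0188). Without α-KG tumor 1 or 4 the adjusted p was 0.0522 or 0.0672, and without anti-PD1 tumor 1 or 4 it was 0.0563 or 0.0691, so the call was lost in these 4 of 8 cases. Cd80, a ligand of CD28 and CTLA-4, was the other called member of 13 checkpoint ligands (3.42, 4.17, 3.58 and 7.14 FPKM against 0.70, 1.71, 0.95 and 1.17; difference 1.36, limma adjusted p = 5.05e-04). The list thus had 2 of 13 members higher (background 2.8%), 0 lower and a median of 0.09. Pdcd1lg2, which encodes PD-L2, was not called (0.68, 0.94, 0.68 and 1.22 FPKM against 0.31, 0.41, 0.55 and 0.29; difference 0.43, limma adjusted p = 0.447).

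Of 11 genes listed as inhibitory checkpoint receptors, 2 were higher and 0 lower, against 2.8% and 0.358% of all genes tested. Differences lay above 0 in 3 of the 11 and below 0 in 8, with a median of -0.21. Entpd1, the ectonucleotidase CD39, measured 14.1, 15.4, 18.8 and 34.5 FPKM in α-KG tumors and 2.28, 5.76, 4.66 and 3.86 in anti-PD1 tumors (difference 2.04 ± 0.38, limma adjusted p = 0.00431). Cd244a, a receptor of NK cells, differed by 1.18 (adjusted p = 0.0217) and lost its call without α-KG tumor 1, 3 or 4 or anti-PD1 tumor 1 or 4 (0.0577 to 0.0754). Pdcd1, which encodes PD1 itself, was not called. It measured 0.54, 3.06, 0.66 and 0.44 FPKM in α-KG tumors and 0.60, 3.93, 5.10 and 1.25 in anti-PD1 tumors (difference -0.71 ± 0.54, limma adjusted p = 0.518). α-KG tumors 2 and 3 lay within the anti-PD1 range.

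Interferon-γ-induced genes ran the other way without reaching the threshold. Of 23 tested members, 22 had differences below 0, Cd274 was the single one above 0 and the single one called, and the median difference was -1.11 against -0.07 over all genes, or -0.72 without anti-PD1 tumor 2. The lowest members were the GTPases Tgtp1, Tgtp2, Iigp1 and Gbp4, at -2.55, -2.34, -2.31 and -2.04. Tgtp1 and Tgtp2 are near-identical copies, so their values are uncertain. No member had all α-KG tumors below all anti-PD1 tumors (background 4.3%), and 1 of 23 was called higher (background 2.8%). The anti-PD1 tumors were far apart in this list, with mean log2(FPKM + 1) of 1.99, 4.13, 4.26 and 2.43, and the α-KG tumors stood at 2.13, 2.70, 1.84 and 1.68. Anti-PD1 tumors 2 and 3 thus stood above all α-KG tumors, whereas tumors 1 and 4 fell among them. Ifng measured 0.26, 1.63, 2.42 and 0.72 FPKM in anti-PD1 tumors and 0.27, 0.77, 0.18 and 0.06 in α-KG tumors (difference -0.70, limma adjusted p = 0.462). Cxcl9, a T-cell chemokine that interferon-γ induces, measured 1.44, 6.86, 10.9 and 2.69 FPKM against 1.02, 2.32, 0.75 and 0.24 in α-KG tumors (difference -1.46, limma adjusted p = 0.231).

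**Figure D3:**
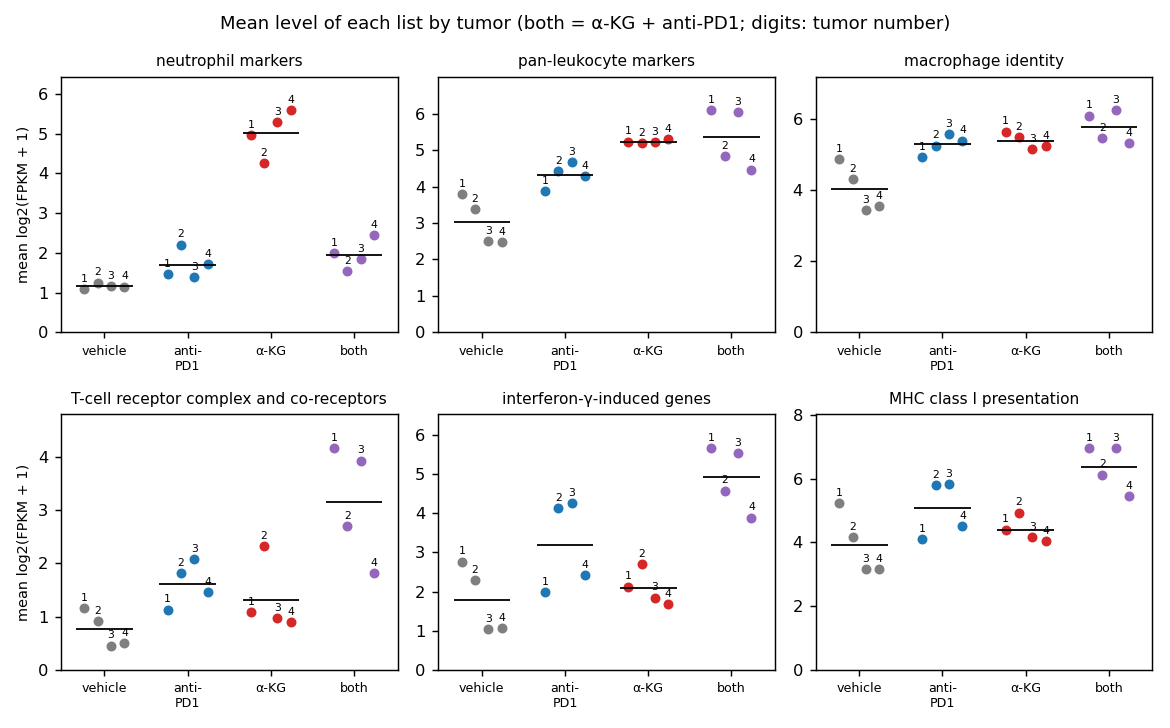
Each panel shows the mean log2(FPKM + 1) of a gene list on the y axis for each tumor, with tumor numbers beside the points, bars for group means of 4 tumors and the 4 groups on the x axis. The neutrophil list separates α-KG tumors (4.26 to 5.58) from anti-PD1 tumors (1.40 to 2.21), and in the interferon-γ and MHC class I lists anti-PD1 tumors 2 and 3 stand above anti-PD1 tumors 1 and 4.

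The components of this pathway differed little. Of 19 JAK, STAT and interferon receptor genes, 0 were called, with a median of 0.14. Ifngr2, a chain of the interferon-γ receptor, came nearest (54.0, 42.8, 42.7 and 53.3 FPKM in α-KG tumors against 37.2, 36.5, 38.9 and 39.2; difference 0.33, limma adjusted p = 0.0807). The differences of Ifngr1, Jak1, Jak2 and Stat3 were 0.03, 0.09, 0.44 and -0.04 (limma, adjusted p from 0.297 to 0.962). None of 8 interferon regulatory factors was called, including Irf1 (difference -0.69, limma adjusted p = 0.549). Of 16 SOCS and other inhibitors, 1 was higher (background 2.8%). It was Socs3, the brake on STAT3 signaling, at 50.6, 35.5, 46.4 and 83.5 FPKM against 7.21, 15.6, 11.8 and 7.92 (difference 2.23 ± 0.30, limma adjusted p = 1.68e-04). None of 26 type I interferon-stimulated genes was called, and their median was -0.05. Oas3, an antiviral sensor, was nearest (difference 0.92, limma adjusted p = 0.0593).

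Antigen presentation and lymphocyte genes gave no called member below anti-PD1, where 0.358% of all genes tested were lower and 2.8% higher. All 20 MHC class I genes had differences below 0, with a median of -0.54, and 0 were called. Their summed level was 1220 to 2097 FPKM in α-KG tumors and 1137 to 3677 in anti-PD1 tumors, so the α-KG range fell within that of anti-PD1. Nlrc5, the transactivator of MHC class I, measured 1.42, 2.44, 0.84 and 0.98 FPKM against 0.99, 12.2, 8.36 and 1.69 (difference -1.11, limma adjusted p = 0.356). Of 12 MHC class II genes, 9 had differences below 0 and 0 were called (median -0.53). Of 18 T-cell receptor and co-receptor genes, 16 had differences below 0 and 0 were called (median -0.26). Cd8a, the co-receptor of cytotoxic T cells, measured 0.59, 3.63, 0.58 and 0.56 FPKM in α-KG tumors and 0.61, 3.40, 4.85 and 2.04 in anti-PD1 tumors (difference -0.70 ± 0.57, limma adjusted p = 0.543). α-KG tumor 2 was the single α-KG tumor among the higher anti-PD1 tumors. All 12 NK-cell markers had differences below 0 and 0 were called (median -0.38). Of 13 cytotoxic effectors, 12 had differences below 0 and 1 above, and the latter was called, Srgn, the proteoglycan of secretory granules in lymphoid and myeloid cells (385, 297, 401 and 690 FPKM against 36.9, 75.2, 50.3 and 60.6; difference 2.94 ± 0.35, limma adjusted p = 5.68e-05). The median of that list was -0.75. None of 9 T-cell-attracting chemokines and receptors (median -0.29), 7 regulatory T-cell markers (-0.14) and 3 tested B-cell markers (0.60) was called. Single tumors moved these medians: without α-KG tumor 2 the T-cell receptor median was -0.62 and the B-cell median 0.18, and without anti-PD1 tumor 3 the chemokine median was 0.02, the cytotoxic median -0.47, the NK-cell median -0.20 and the MHC class I median -0.34. Of 12 T-cell costimulation genes, 1 was called, Cd80.

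**Figure D4:**
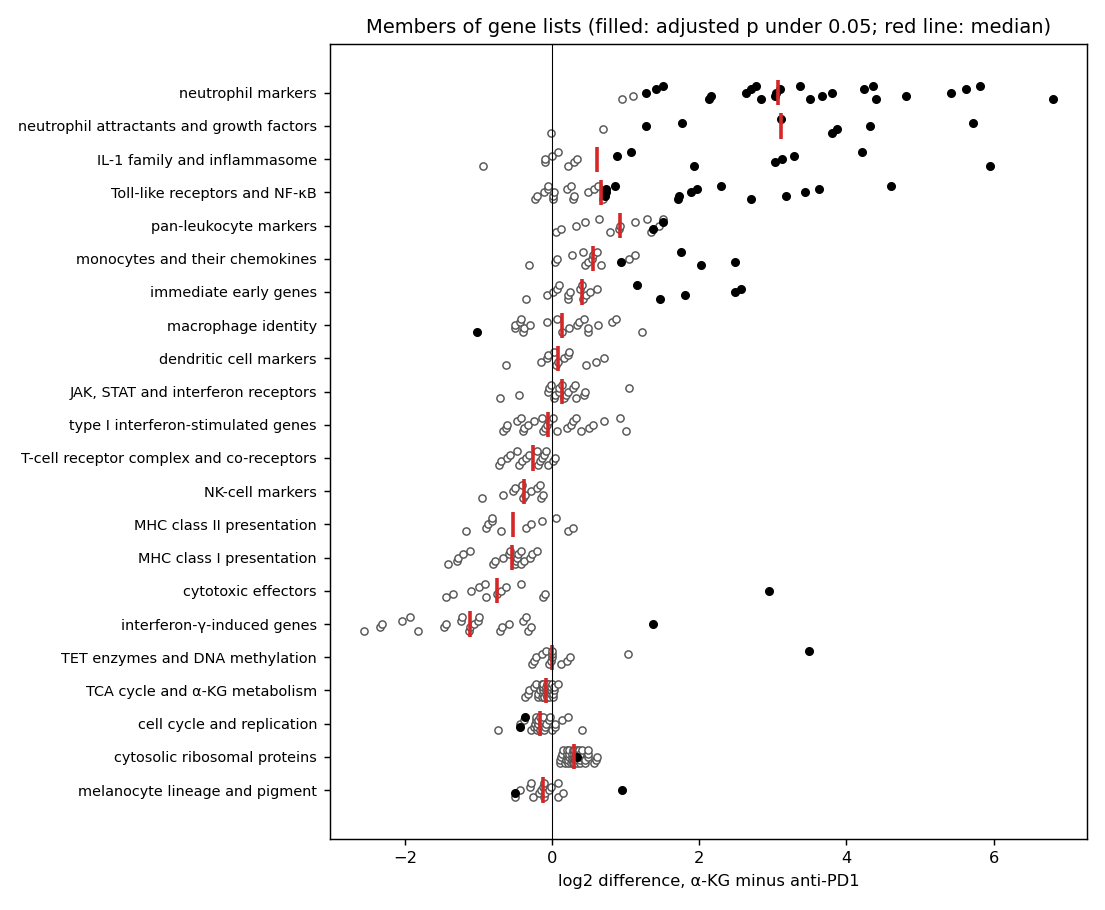
Each row is a gene list and each point a tested member, with the log2 difference of α-KG minus anti-PD1 tumors on the x axis, filled where the adjusted p was under 0.05, and a red line at the median of the list. Medians run from 3.11 for neutrophil attractants to -1.11 for interferon-γ-induced genes, and filled points are concentrated in the 4 lists at the top.

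The 46 genes lower in α-KG than in anti-PD1 tumors differed by little. Ppargc1a, which encodes the coactivator PGC-1α of mitochondrial biogenesis, measured 22.1, 23.5, 19.8 and 20.7 FPKM in α-KG tumors and 35.0, 43.8, 45.0 and 43.2 in anti-PD1 tumors (difference -0.92 ± 0.10, limma adjusted p = 2.53e-05). The vehicle tumors measured 24.9, 29.5, 24.1 and 22.8, and Ppargc1a differed between anti-PD1 and vehicle tumors by 0.70 (limma, adjusted p = 0.0184) and between α-KG and vehicle tumors by -0.22 (adjusted p = 0.157), in comparisons that share these tumors. Cd36, a receptor that takes up fatty acids and oxidized lipids in macrophages and tumor cells, measured 11.0, 14.0, 7.97 and 8.90 FPKM against 16.6, 19.0, 28.2 and 25.4 (difference -1.02 ± 0.26, limma adjusted p = 0.0434). It was also higher in anti-PD1 than in vehicle tumors, by 1.75 (limma, adjusted p = 0.0184). The call between α-KG and anti-PD1 was lost for Cd36 without α-KG tumor 1, 3 or 4 or anti-PD1 tumor 2, 3 or 4 (adjusted p from 0.0712 to 0.163). Slc2a4, the insulin-responsive glucose transporter GLUT4, measured 2.77, 2.85, 1.84 and 2.25 FPKM against 3.51, 4.51, 4.93 and 3.85 (difference -0.60, limma adjusted p = 0.026) and was not called without α-KG tumor 3 or 4 or anti-PD1 tumor 2, 3 or 4 (0.0519 to 0.106).

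The other 9 of the 12 smallest differences lay between -0.77 and -0.50. They were Npcd, 1700003F12Rik, Rusc2, a RUN domain protein, Mpp2, a membrane-associated guanylate kinase, Bace2, a protease that cleaves the pigment cell protein PMEL, Cars, the cysteinyl-tRNA synthetase, Slc24a4, a sodium-calcium exchanger, Gpr143, a receptor of melanosomes, and Akap2, an anchoring protein of protein kinase A. Rusc2 measured 26.1, 20.7, 20.9 and 24.2 FPKM in α-KG tumors and 30.6, 36.3, 40.9 and 30.9 in anti-PD1 tumors, and Mpp2 measured 8.73, 8.03, 7.80 and 9.70 against 11.6, 15.1, 14.2 and 11.1. Rusc2, Mpp2 and Akap2 kept their call without any 1 tumor. Of the rest, Bace2, Cars, Gpr143 and 1700003F12Rik lost it without 6, 8, 6 and 7 of the 8 tumors in turn (adjusted p up to 0.166, 0.153, 0.123 and 0.179), and Npcd and Slc24a4 without 5 each (up to 0.0839 and 0.0896).

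**Figure D5:**
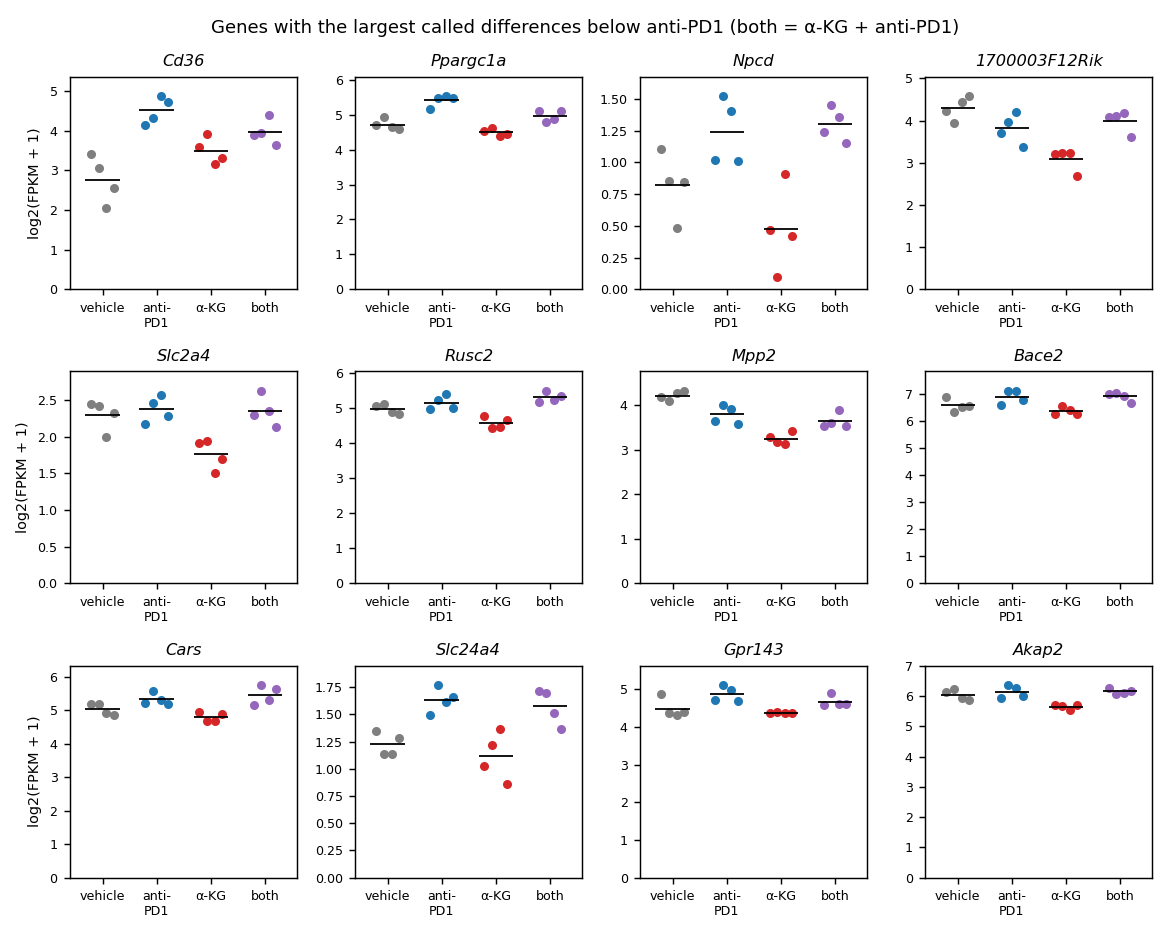
Each panel shows 1 of the 12 genes with the largest called differences below anti-PD1, with log2(FPKM + 1) on the y axis, a point for each tumor, a bar for the group mean of 4 tumors and the 4 groups on the x axis. The genes were picked for lack of overlap, so the α-KG tumors lie below the anti-PD1 tumors in every panel. Differences run from -1.02 log2 units for Cd36 to -0.50 for Akap2. For Ppargc1a, Cd36 and Slc24a4 the vehicle tumors also lie below the anti-PD1 tumors.

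Enzymes that use α-KG and enzymes that make it held at most 1 called member per list. Over all genes tested, 2.8% were higher and 0.358% lower, and counts of 0 or 1 are near that share. Of 15 genes of TET enzymes and DNA methylation, 1 was higher and 0 lower, with a median of 0.00. It was Gadd45b, a stress-induced protein linked to DNA demethylation and MAP kinase signaling (91.6, 46.8, 81.0 and 123 FPKM against 5.01, 7.04, 5.68 and 7.82; difference 3.49 ± 0.27, limma adjusted p = 1.29e-06). Tet1, Tet2 and Tet3 differed by -0.04, -0.28 and -0.01 (limma, adjusted p from 0.652 to 0.98). Tet2 measured 3.29, 3.09, 2.10 and 4.00 FPKM in α-KG tumors and 1.85, 7.09, 4.88 and 3.31 in anti-PD1 tumors, and the groups overlapped. None of 20 histone demethylases was called, with Kdm6b, which removes H3K27 methylation, nearest (difference 0.61, limma adjusted p = 0.0646). Of 24 other α-KG-dependent dioxygenases, 1 was higher, Egln3, a prolyl hydroxylase that is itself induced by hypoxia (16, 8.42, 12.5 and 15.0 FPKM against 5.27, 4.04, 6.15 and 6.24; difference 1.1 ± 0.19, limma adjusted p = 0.0019). None of 35 genes of the TCA cycle and α-KG metabolism was called (median -0.09), nor any of 42 genes of the respiratory chain and ATP synthase (median -0.06). Got1, the cytosolic aspartate aminotransferase, which interconverts glutamate and α-KG, was nearest in the former (difference -0.37, limma adjusted p = 0.109).

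Of 31 cell cycle and replication genes, 26 had differences below 0, 2 were lower and 0 higher, with a median of -0.16, where 0.358% of all genes tested were lower. In 9 of the 31 all α-KG tumors lay below all anti-PD1 tumors, against 4.3% of all genes. Aurkb, a kinase of chromosome segregation, measured 32.6, 29.7, 26.7 and 29.3 FPKM in α-KG tumors and 39.2, 39.3, 38.8 and 35.4 in anti-PD1 tumors (difference -0.36, limma adjusted p = 0.0388). Bub1, a kinase of the spindle checkpoint, differed by -0.44 (adjusted p = 0.0426). No member was called without α-KG tumor 2 or 3 or anti-PD1 tumor 2, 3 or 4. All 48 ribosomal protein genes had differences above 0, with a median of 0.30 (0.10 with quantile normalization). Rps24 was the 1 called member (background 2.8%), at 888, 881, 850 and 798 FPKM against 699, 597, 653 and 770 (difference 0.33, limma adjusted p = 0.0451). Without α-KG tumor 4 there were 7 called members, and without α-KG tumor 1, 2 or 3 or anti-PD1 tumor 1, 2 or 3 there were 0.

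Metabolic and stress lists held between 0 and 4 called members each, where 2.8% of all genes tested were higher and 0.358% lower. Of 29 glycolysis and hypoxia genes, 3 were higher and 1 lower. Pfkfb3, which drives glycolysis through fructose bisphosphate, differed by 1.23, Slc2a3, the glucose transporter GLUT3, by 0.83, and Hk2, a hexokinase, by -0.36 (limma, adjusted p from 0.00277 to 0.0332). The third member above anti-PD1 was Egln3. Slc2a3 was not called without anti-PD1 tumor 4 (adjusted p = 0.0573), and Hk2 was not called without α-KG tumor 1, 2, 3 or 4 or anti-PD1 tumor 3 or 4 (0.052 to 0.123). Of 7 genes of arginine and tryptophan catabolism, 2 were higher. Arg2, the mitochondrial arginase, measured 13.8, 10.1, 14.1 and 25.1 FPKM in α-KG tumors and 0.72, 0.81, 0.60 and 0.56 in anti-PD1 tumors (difference 3.26 ± 0.22, limma adjusted p = 3.41e-07). Nos2, the inducible nitric oxide synthase, measured 37.0, 9.40, 23.8 and 32.5 FPKM against 1.35, 4.67, 4.16 and 2.23 (difference 2.63 ± 0.50, limma adjusted p = 0.00549). Of 18 ferroptosis and iron genes, 2 were higher, Lcn2 and Fth1, the ferritin heavy chain, whose difference of 0.64 (adjusted p = 0.0389) was not called without α-KG tumor 1, 3 or 4 or anti-PD1 tumor 1, 2 or 4 (0.0676 to 0.131). Of 17 genes of the amino-acid and ER stress response, 0 were called, and Slc7a11, the cystine transporter, differed by 1.1 (limma, adjusted p = 0.103).

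Death receptors and serpins added 4 called members, where 2.8% of all genes tested were higher. Of 15 death receptors and ligands, 3 were higher: Tnf, Tnfrsf1b, which encodes TNF receptor 2 (difference 2.19), and Fas (difference 1.82; 3.87, 2.48, 4.30 and 7.34 FPKM against 0.36, 0.46, 0.38 and 0.77). Serpinb2, the plasminogen activator inhibitor of myeloid cells, was the 1 called member of 14 serpins and passed the filter only through the α-KG tumors (12.5, 5.05, 11.4 and 20.5 FPKM against 0.15, 0.34, 0.18 and 0.32; difference 3.29, limma adjusted p = 2.74e-06).

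In the remaining tissue compartments, no member was called among 15 hemoglobin and erythroid genes (median -0.10), 14 skeletal muscle genes (0.02), 17 fibroblast and collagen genes (-0.07), 9 endothelial genes (-0.24), 2 adipocyte genes or 1 keratinocyte gene that passed the filter. Of 18 melanocyte genes, Ednrb, the endothelin B receptor of the melanocyte lineage, was higher (3.79, 2.11, 2.12 and 3.00 FPKM against 1.41, 0.39, 0.73 and 1.28; difference 0.95, limma adjusted p = 0.00646), Gpr143 was lower, and the median was -0.12. All α-KG tumors lay below all anti-PD1 tumors in 6 of the 18 and above them in 1, against 4.3% and 5.41% of all genes. Over all genes tested, 2.8% were called higher and 0.358% lower.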

How the data were processed

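RNA of whole tumors was sequenced from poly(A)-selected, strand-marked libraries. The authors deposited 1 table of FPKM values per gene for all 16 tumors, not read counts. The submitters' processing notes name HISAT, Bowtie2 and mm10, and the program that made the FPKM values and the annotation are not given in the sources used here. Low values did not step in whole reads (17.1% of 158 ratios lay within 0.1 of a whole number, 20% by chance), so no counts were recovered and the depth is unknown. Values were taken as log2(FPKM + 1), which understates changes of low genes.

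limma 3.58.1 in R 4.3.3 fitted 1 mean per group over all 16 tumors, with the empirical Bayes trend, and p-values were Benjamini-Hochberg adjusted over 12850 genes. SE is that of the fit. n = 4 tumors per group throughout. The limma p-values rest on the spread within groups over all 16 tumors, including the vehicle and α-KG + anti-PD1 tumors, and not on the compared tumors alone. The fit was first tested on simulated data. Genes named were the 12 largest and 12 smallest called differences without overlap and with a mean of at least 1 FPKM in the higher group, up to 4 called members of each list (2 where none was called), and the PD1, interferon-γ, JAK-STAT and TET genes of the study. A few genes that the rule names are not reported here. Others are said to have been chosen after their values were seen. The comparison and the 47 gene lists were chosen with earlier results of these data known. Alternatives were other pseudocounts, filters and scalings, a fit of the 8 tumors alone, a replicate block, robust variances and leaving out each tumor. Gene starts came from RefSeq (GRCm38.p6), the genome of mm10, and 99.7% of the listed genes matched it.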

Additional observations from a re-analysis of the deposited data

Results flagged for a closer look

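In 15 of the 248 groups of 4 tumors examined, 2 for each named gene and for the FPKM sum and the hemoglobin share, 1 tumor stood so far from the other 3 that its gap passed Dixon's critical value. Chance passes about 1 in 20 such groups, and no cause was tested. In α-KG tumors, tumor 2 was the tumor set apart for Lcn2 (136 FPKM, the lowest), Fcer2a (3.43), Tnfrsf4 (1.79), Pdcd1 (3.06), Cd8a (3.63) and Tet1 (0.72). For Tet1 the other 3 α-KG tumors were all listed at 0.66 FPKM, so a small gap passed. Tumor 4 was set apart for Egr1 (24.2 FPKM), Slc2a3 (21.5) and 1700003F12Rik (5.46), and tumor 3 for Col15a1 (1.52). Among anti-PD1 tumors, tumor 1 was set apart for Ccl4 (15.3 FPKM), Ppargc1a (35.0), Il10 (0.24) and Rhag (0.78), and tumor 4 for Aurkb (35.4).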

How the results depend on the processing

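The 360 genes higher in α-KG tumors stayed within 1.5 times that count under each of the 18 alternatives (256 to 427), and 159 of them were called in all 18. The 46 genes lower in α-KG tumors depended on the scaling and on single tumors, and 4 of them were called in all 18. Their count was 85 with quantile normalization, 76 with centering on the median, 7 with equal FPKM sums, 155 with equal sums without hemoglobin genes and 28 with the 8 tumors alone. Leaving out 1 tumor gave 10 to 121 lower genes, with 121 and a share of higher calls of 70.8% without anti-PD1 tumor 1, against 88.7% with all tumors. With the replicate number as a block, 296 genes were higher and 20 lower. Same-numbered α-KG and anti-PD1 tumors deviated with correlations of -0.007, 0.137, -0.251 and 0.021. What the numbers stand for is not given in the sources used here. These correlations cannot settle whether same-numbered tumors shared a batch. Of the named genes, 36 of 54 higher and 3 of 15 lower were called in all 18 alternatives, and 10 more of the higher ones were called in each alternative but the stricter filter of 1 FPKM in at least 8 tumors, under which they were not tested. None of the named genes that were called changed direction. Of the 47 list medians, 35 kept their sign in each alternative and 12, all within 0.29 of 0, did not. No depth is known, so values near 0 carry an unknown counting error.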

Other observations

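The following genes were chosen after their values were seen, and those with a difference were called (limma, Benjamini-Hochberg adjusted p under 0.05) except where stated. Hp, which encodes the hemoglobin scavenger haptoglobin, measured 44.3, 19.6, 51.7 and 48.8 FPKM in α-KG tumors and 2.50, 3.58, 1.81 and 1.43 in anti-PD1 tumors, a log2 difference of 3.61. Cebpb, a transcription factor of granulocytes and acute-phase genes, measured 99.4, 76.4, 110 and 172 FPKM against 24.1, 37.8, 34 and 27.6, a log2 difference of 1.81. Both groups were apart without overlap for each gene. Osm, the cytokine oncostatin M, differed by 3.47, and Lrg1, a secreted glycoprotein of the acute phase, by 4.09. Cebpa, a related factor of granulocyte development, differed by -0.24 and was not called.

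Genes of lipid mediators and of the NADPH oxidase were called in part. Alox5ap, which presents arachidonic acid to 5-lipoxygenase, differed by 1.80, Ptges, a prostaglandin E synthase, by 1.66, and Ltb4r1, the leukotriene B4 receptor, by 1.33. Lta4h, the enzyme that makes leukotriene B4, differed by -0.01 and was not called. Of the oxidase, the cytosolic subunit genes Ncf1 and Ncf4 differed by 1.48 and 1.32 and were called, while the membrane subunit genes Cybb and Cyba differed by 0.47 and 0.06 and were not.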
